A study of Homo sapiens with 18 samples.

Results

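The genes described here encode the mitotic cyclins and the regulators of the anaphase-promoting complex (APC/C). There are 10 of them, out of 22465 genes with a usable probe set: the cyclins CCNA2, CCNB1, CCNB2 and CCNF, the APC/C activators CDC20 and FZR1, the ubiquitin-conjugating enzymes UBE2C and UBE2S, the APC/C inhibitor FBXO5, and PTTG1, the securin that holds separase inactive. Each was read from the transcript cluster annotated with its symbol alone, and where there were several from the one with the highest mean, so the choice of cluster did not use the response to the drug. The 10 genes themselves were chosen with earlier results of these data known. All 10 were measured and none was filtered out. Total RNA of J82 and RT112, established human bladder cancer cell lines, was hybridised to Affymetrix whole-transcript arrays after treatment with palbociclib, an inhibitor of the kinases CDK4 and CDK6, at the IC50, or with PBS as the control. The concentration and the duration are not given in the sources used here. Each of the 4 groups, which were J82 with PBS, J82 with palbociclib, RT112 with PBS and RT112 with palbociclib, had 3 arrays, each from a separate dish of one line harvested before full confluence. The question was how the transcripts differed between treated and control cells of the same line.

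As background, cyclin A2 and the B-type cyclins bind CDK1 and drive the cell from DNA replication into mitosis. The APC/C, a ubiquitin ligase, then marks securin and the mitotic cyclins for destruction, first with CDC20 and later with FZR1 as its activator, so that sister chromatids part and the cell leaves mitosis. Most of these genes are transcribed late in the cell cycle, and in resting cells they are held silent by the DREAM complex, which recognises the cell cycle genes homology region (CHR) of their promoters. CCAAT boxes, bound by the factor NF-Y, often lie just upstream of the CHR.

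Promoter stretches of 7 of the genes are shown because they let a reader see these elements in genes that responded to the drug and in FZR1, which did not pass the test in either line. They are RefSeq sequences on GRCh38.p14, each the 120 bases before the annotated start, written 5′ to 3′ on the strand of the gene, with CHR spellings (TTTGAA or TTCGAA or TTTAAA or CTTGAA) and CCAAT boxes of either strand in capitals. The stretch of CCNA2 is chr4:121823884-121824003 on the minus strand, that of CCNB1 chr5:69167030-69167149 on the plus strand, and that of CCNB2 chr15:59105026-59105145 on the plus strand. The stretch of PTTG1 is chr5:160421735-160421854 and that of CDC20 chr1:43358861-43358980, both on the plus strand. The stretch of FBXO5 lies before the second of its annotated starts, at chr6:152983042-152983161 on the minus strand, and that of FZR1 is chr19:3506191-3506310 on the plus strand.
CCNA2: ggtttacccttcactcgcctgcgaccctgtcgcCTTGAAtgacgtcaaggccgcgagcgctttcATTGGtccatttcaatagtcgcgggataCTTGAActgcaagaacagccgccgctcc
CCNB1: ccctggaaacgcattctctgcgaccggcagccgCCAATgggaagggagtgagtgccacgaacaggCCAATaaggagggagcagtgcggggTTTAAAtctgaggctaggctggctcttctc
CCNB2: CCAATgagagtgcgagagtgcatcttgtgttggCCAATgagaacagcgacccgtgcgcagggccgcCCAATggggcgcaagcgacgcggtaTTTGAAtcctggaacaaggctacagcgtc
PTTG1: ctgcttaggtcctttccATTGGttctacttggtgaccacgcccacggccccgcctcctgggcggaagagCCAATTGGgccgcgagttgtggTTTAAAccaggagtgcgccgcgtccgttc
CDC20: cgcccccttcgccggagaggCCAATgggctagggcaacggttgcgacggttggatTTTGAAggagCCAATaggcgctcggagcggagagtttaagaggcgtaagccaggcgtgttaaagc
FBXO5: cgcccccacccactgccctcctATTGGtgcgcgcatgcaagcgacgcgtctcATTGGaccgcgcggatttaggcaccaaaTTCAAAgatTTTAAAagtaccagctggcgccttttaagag
FZR1: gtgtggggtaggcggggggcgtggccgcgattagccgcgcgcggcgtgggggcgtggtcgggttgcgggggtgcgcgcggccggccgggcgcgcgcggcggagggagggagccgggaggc
In these letters CCNA2, CCNB1, CCNB2, PTTG1 and FBXO5 each have a CHR spelling shortly before the start and a CCAAT box upstream of it, CDC20 has a CHR spelling between a pair of CCAAT boxes, and the FZR1 stretch has neither. UBE2S, which was called lower in both lines by the cluster selected, is not shown, and its 120 bases before the start have neither element as well.

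Over windows from 250 bases before to 50 bases after each start, RefSeq entries were found for 9 of the 10 genes, with 12 windows between them. UBE2C had no entry. A CHR in one of the 4 spellings, on either strand, was in 9 of the 12 windows and in 8 of the 9 genes, against 32.2% of all 35116 windows. A CCAAT box was in 9 of the 12 windows, against 34.6% of all windows, and at least 2 were in 7 of the 12, against 10.8%. The first and second PTTG1 windows overlap and hold the same elements, so these are counted in both. All background shares are over windows and not over genes. A CHR spelling that starts 40 to 20 bases before the start, with a CCAAT box starting 15 to 40 bases upstream of it, was in 5 member windows, those of CCNA2, CCNB1, CCNB2, FBXO5 and PTTG1, and in 0.305% of all windows. That spacing was chosen after the sequences had been seen, so its count is a description only. CHR spellings began at positions -233 and -85 in CCNF, at -178 and -65 in CDC20 and at -226 in FZR1, which had no CCAAT box, and UBE2S had a CCAAT box at -191 and no CHR spelling. The window at the first annotated start of FBXO5 had no CHR spelling and no CCAAT box. The E2F spellings searched (TTTCCCGC or TTTGGCGC or TTTCGCGC or TTTGCCGC, either strand) were in 0 of the 12 windows and in 3.31% of all windows. A match is a run of letters and not a shown binding site.

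**Figure D1:**
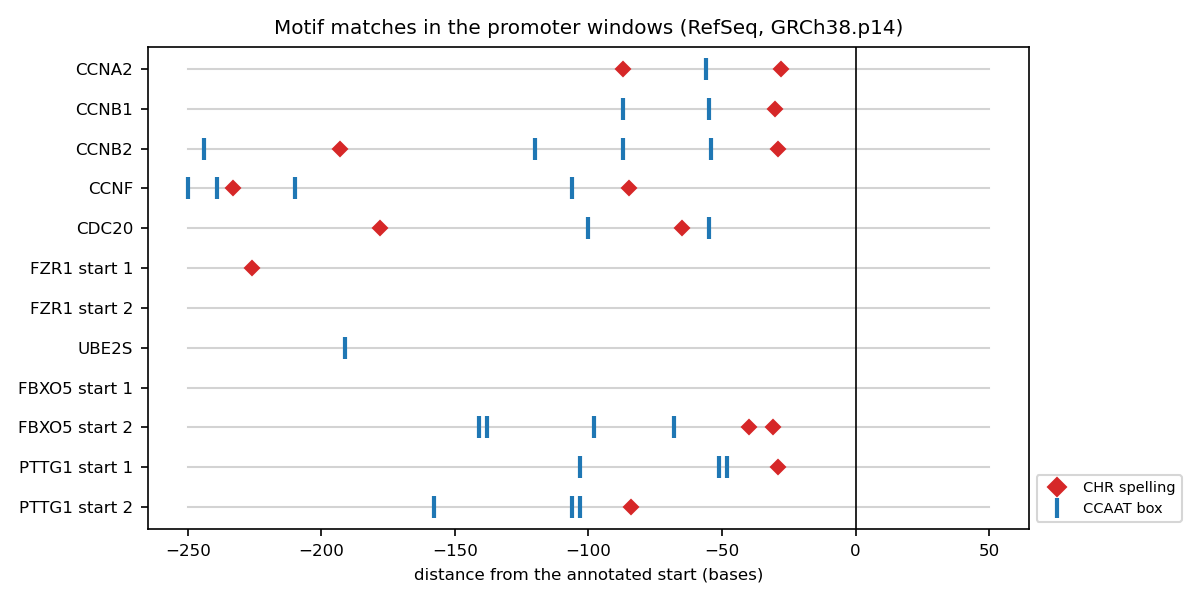
Positions of CHR spellings and CCAAT boxes in the 12 promoter windows of 9 genes, in bases from the annotated start, one line per window. In CCNA2, CCNB1, CCNB2, the first PTTG1 window and the second FBXO5 window a CHR spelling starts 40 to 20 bases before the start with a CCAAT box upstream of it; CCNA2 and CCNB2 have another at -87 and -193, and in the second PTTG1 window it starts at -84.

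The values are log2 summarised intensities as deposited. They reach 19.93, above what the log2 of a 16-bit scan can hold, so differences are given on the deposited log2 scale and are not fold changes of signal. Array medians over all rows ran from 4.8 to 5.21, and the highest was that of RT112 palbociclib replicate 1, which also had the lowest correlation with arrays of its own group, 0.973. The 11 epithelial and urothelial markers had a median level of 11.4 in RT112 controls and 5.94 in J82 controls. In J82 only the keratins KRT7, KRT8 and KRT18, at 10.9 to 14.4, were above 7, and the epithelial cadherin CDH1 was at 5.68, against 13.5 in RT112. The uroplakin UPK3A, which marks mature urothelium, was at 4.22 in J82 and 4.42 in RT112, below the array medians. The other uroplakin listed, UPK2, was at 5.86 in J82 and 6.32 in RT112, above those medians though below 7. Of the mesenchymal and fibroblast markers, the cadherin CDH2 was at 12.9 in J82 controls and 6.23 in RT112 controls, FN1 at 9.91 and 10.5, and LUM at 7.77 and 7.81. The others were below 7 in both lines. VIM was at 6.03 in J82 and 4.69 in RT112, ZEB1 at 6.05 and 5.20, DCN at 4.34 and 4.46, and COL1A1 at 5.41 and 5.21. More of the epithelial markers were high in RT112 than in J82. The 3 leukocyte and 3 endothelial markers measured lay between 3.32 and 5.25 in control cells. Arrays of the third line, 5637, were outside the selection used here. Its transcript cluster rows correlated with those of J82 at 0.027, against 0.94 between J82 and RT112. In the other 2995 rows the correlations were 0.969 and 0.983, so the low value was confined to the transcript cluster rows. Its cause was not tested.

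Most of these transcripts were lower under palbociclib in both lines. Since the genes were chosen with earlier results of these data known, their counts beside all genes are a description only. In J82, 7 of the 10 fell, namely CCNA2, CCNB1, CCNF, CDC20, UBE2C, UBE2S and PTTG1, where 2.78% of all genes fell (limma, adjusted p under 0.05 by Benjamini and Hochberg over all genes). In RT112, 9 of the 10 fell, all but FZR1, where 3.53% of all genes fell. None of the 10 rose in either line by limma, where 5.4% of all genes rose in J82 and 4.95% in RT112, and 0 had a higher level at an unadjusted p under 0.05. The share of all genes at that unadjusted threshold was not counted. The 7 that fell in J82 also fell in RT112, which 0.494% of all genes did. Treated and control arrays did not overlap, with treated lower, for 7 of the 10 in J82, against 7.82% of all genes, and for 9 in RT112, against 8.26%. They were apart with treated higher for 1 in J82, FBXO5, against 16.1% of all genes. The median log2 difference of the 10 was -0.95 in J82 and -1.49 in RT112, beside medians of 0.04 in both lines over all genes. In these bulk samples fewer cells in late cell cycle phases and less RNA of these genes per cell cannot be told apart, and the p-values measure the spread between dishes. J82 control replicate 1 was the highest control array for 9 of the 10 genes, which was so for 34.1% of all genes. The number of genes called in J82 was 4 without that array and 3 without J82 palbociclib replicate 2, the lowest treated array for 8 of the 10 against 47.8% of all genes.

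**Figure D2:**
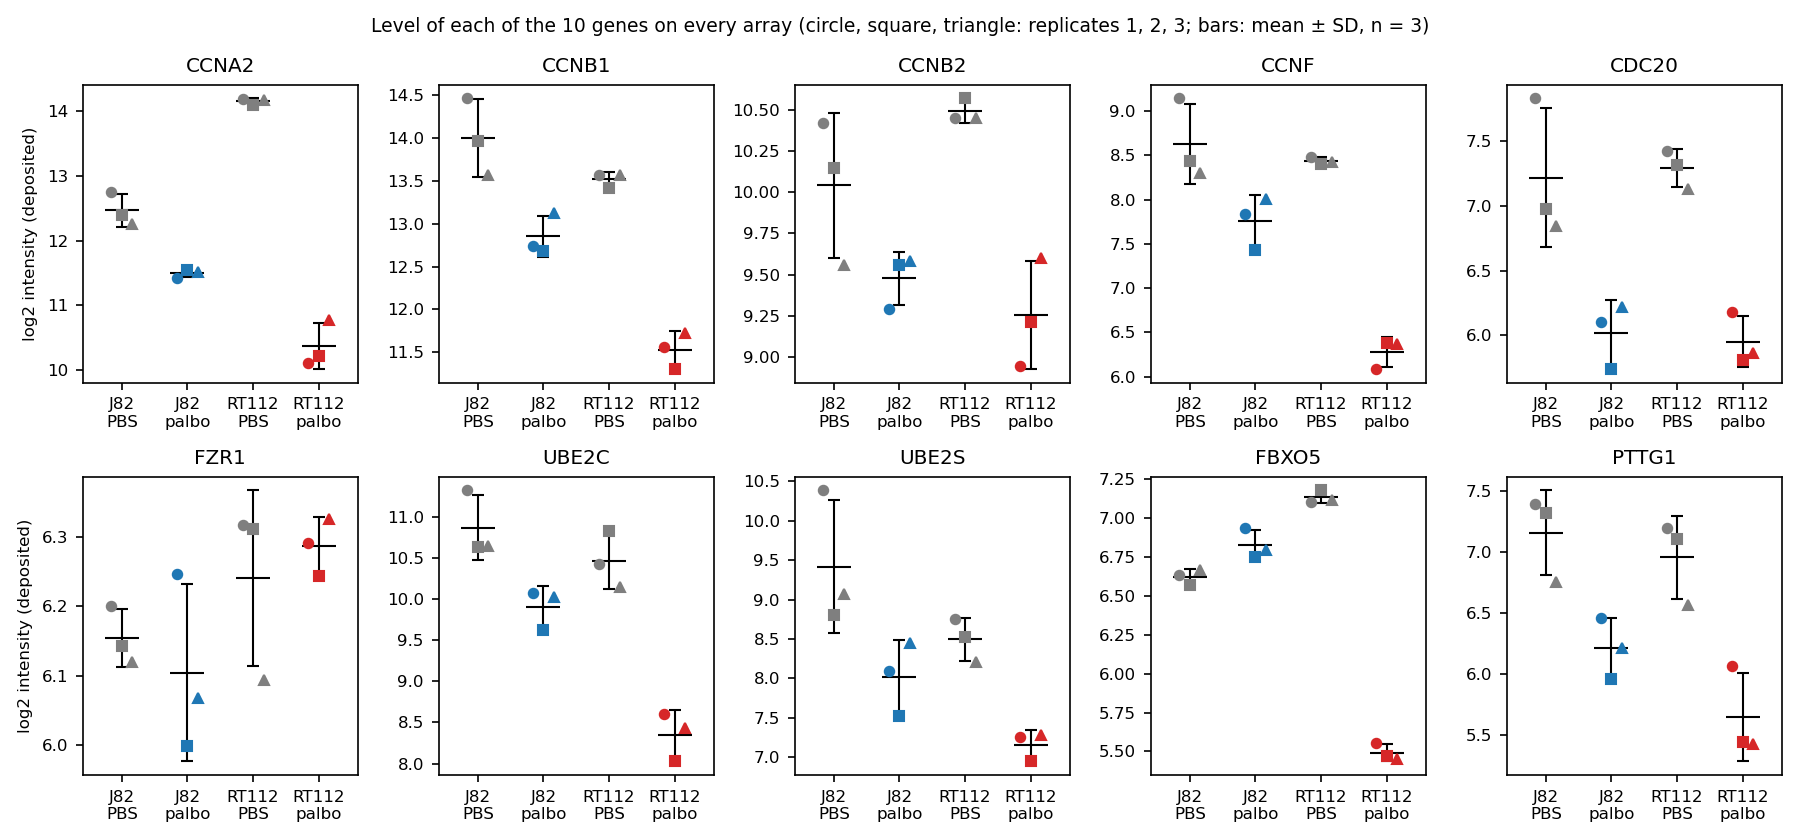
Deposited log2 intensity of each of the 10 genes on all 12 arrays, with the mean and SD of each group of 3. Treated RT112 arrays lie below the RT112 controls for every gene but FZR1, and CCNA2 has the widest separation.

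CCNA2, at chr4:121816444-121823883 on GRCh38.p14, encodes the cyclin that works from DNA replication to early mitosis. In J82 its log2 level was 12.75, 12.40 and 12.26 in the controls and 11.43, 11.55 and 11.51 under palbociclib. In RT112 it was 14.19, 14.10 and 14.18 in the controls and 10.11, 10.22 and 10.78 under palbociclib. The groups did not overlap in either line, and RT112 went from the higher control level to the lower treated level. The difference was -0.97 ± 0.194 (SE, limma adjusted p = 0.0068) in J82. In RT112 it was -3.79 ± 0.194 (limma adjusted p = 4.56e-08), the lowest difference of the 10 genes there.

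CCNB1, at chr5:69167150-69178245, encodes the main cyclin partner of CDK1 at mitotic entry. Its controls in J82 were at 14.47, 13.97 and 13.57 and its treated arrays at 12.75, 12.69 and 13.13. In RT112 the controls were at 13.57, 13.42 and 13.57 and the treated arrays at 11.56, 11.30 and 11.73. All treated arrays were below all controls of their line, and the J82 controls were spread more widely than those of RT112. CCNB1 fell in both lines, with a difference of -1.15 ± 0.223 in J82 (limma adjusted p = 0.00565) and -1.99 ± 0.223 in RT112 (limma adjusted p = 4.54e-05).

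CCNB2, at chr15:59105146-59125045, encodes a second B-type cyclin, found mostly at the Golgi. Its J82 controls were at 10.42, 10.15 and 9.56 and the treated arrays at 9.29, 9.56 and 9.58. The RT112 controls were at 10.45, 10.57 and 10.45 and the treated arrays at 8.95, 9.21 and 9.60. The groups overlapped in J82, where the third control was as low as the treated arrays, and were apart in RT112. The J82 difference of -0.57 ± 0.218 did not pass the test (limma adjusted p = 0.151, 95% interval -1.03 to -0.10), and it ranged from -0.81 without that control, where it passed, to -0.38 without J82 control replicate 1. In RT112 CCNB2 fell by 1.24 ± 0.218 (limma adjusted p = 0.00236).

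CCNF, at chr16:2429447-2458854, encodes cyclin F, which binds no CDK and serves as the substrate receptor of an SCF ubiquitin ligase. In J82 its controls were at 9.15, 8.44 and 8.30 and the treated arrays at 7.84, 7.43 and 8.004. For RT112 the controls stood at 8.48, 8.40 and 8.42 and the treated arrays at 6.08, 6.38 and 6.37. The groups were apart in both lines, by a narrow gap in J82 and a wide one in RT112. CCNF fell by 0.87 ± 0.207 in J82 (limma adjusted p = 0.0174), a call that was lost without J82 control replicate 1 (-0.61) or palbociclib replicate 2 (-0.71). In RT112 it fell by 2.16 ± 0.207 (limma adjusted p = 9.64e-06).

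Of the APC/C activators, CDC20 fell in both lines and FZR1 passed the test in neither. CDC20, at chr1:43358981-43363203, encodes the activator used in mitosis, which is also the target of the spindle checkpoint. The J82 controls were at 7.83, 6.97 and 6.84 and the treated arrays at 6.11, 5.74 and 6.22. Among RT112 arrays the controls were at 7.42, 7.31 and 7.13 and the treated arrays at 6.18, 5.81 and 5.87. No treated array reached the lowest control of its line. CDC20 fell in both lines, with a difference of -1.19 ± 0.221 in J82 (limma adjusted p = 0.00418) and -1.33 ± 0.221 in RT112 (limma adjusted p = 0.00152), differences of nearly the same size. Its treated means, 6.02 in J82 and 5.95 in RT112, were not far above the array medians.

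FZR1, at chr19:3506311-3538334, encodes the activator that keeps the APC/C working from late mitosis through G1. Its J82 controls were at 6.20, 6.14 and 6.12 and the treated arrays at 6.25, 5.998 and 6.07. In RT112 the controls were at 6.32, 6.31 and 6.09 and the treated arrays at 6.29, 6.24 and 6.33. The groups overlapped in both lines. The difference was -0.05 ± 0.106 in J82 (limma adjusted p = 0.93, 95% interval -0.28 to 0.18) and 0.05 ± 0.106 in RT112 (limma adjusted p = 0.953, 95% interval -0.18 to 0.28). These intervals leave out differences of the size seen for the other genes that fell.

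UBE2C, at chr20:45812644-45816952, encodes the enzyme that places the first ubiquitin on APC/C substrates. In J82 its controls were at 11.32, 10.64 and 10.65 and the treated arrays at 10.08, 9.62 and 10.03. The RT112 controls were at 10.43, 10.83 and 10.14 and the treated arrays at 8.61, 8.03 and 8.43. Treated arrays lay below the controls in both lines. UBE2C fell by 0.96 ± 0.237 in J82 (limma adjusted p = 0.022), a call lost without J82 control replicate 1 (-0.73) or palbociclib replicate 2 (-0.82). It fell by 2.11 ± 0.237 in RT112 (limma adjusted p = 4.54e-05).

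UBE2S encodes the enzyme that extends ubiquitin chains on APC/C substrates, and it was annotated to 2 transcript clusters. RefSeq places the gene at chr19:55399745-55407788, whereas the cluster with the higher mean, which the selection takes, is named for chromosome 17, where RefSeq lists pseudogenes of UBE2S. Among autosomal genes 99.28% had a cluster named for their RefSeq chromosome, and among the 10 genes only UBE2S did not. The chromosome 17 cluster had J82 controls at 10.38, 8.80 and 9.07 and treated arrays at 8.10, 7.53 and 8.44. In RT112 its controls were at 8.76, 8.52 and 8.21 and its treated arrays at 7.25, 6.95 and 7.28. The groups were apart in both lines, with J82 control replicate 1 well above the other controls. By this cluster UBE2S fell in both lines, with a difference of -1.39 ± 0.337 in J82 (limma adjusted p = 0.0196) and -1.34 ± 0.337 in RT112 (limma adjusted p = 0.0242). The J82 difference was -0.91 without control replicate 1 and still passed, the J82 call was lost without palbociclib replicate 2 (-1.15), and the RT112 call was lost without control replicate 1 (-1.21), control replicate 2 (-1.33), palbociclib replicate 2 (-1.23) or palbociclib replicate 3 (-1.40).

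The chromosome 19 cluster had J82 controls at 8.04, 7.24 and 7.62 and treated arrays at 6.95, 6.82 and 6.91. In RT112 its controls were at 7.02, 6.93 and 6.94 and its treated arrays at 6.44, 6.45 and 6.68. Here too the groups were apart in both lines, at lower levels and with a smaller gap in RT112. The difference was -0.74 ± 0.165 in J82 (limma adjusted p = 0.0127) and -0.44 ± 0.165 in RT112 (limma adjusted p = 0.14). With this cluster, an alternative added after the data had been seen, 8 of the 10 genes fell in RT112 and 7 in J82. Which cluster reads UBE2S transcripts was not tested, as no probe sequences were used here.

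**Figure D3:**
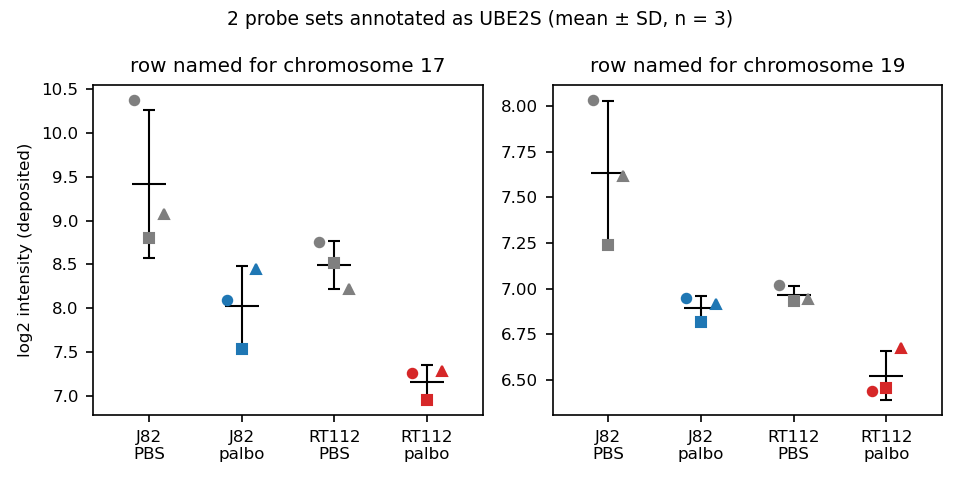
Deposited log2 intensity of the 2 transcript clusters annotated as UBE2S on all 12 arrays, with the mean and SD of each group of 3. Both are lower under palbociclib in both lines, and the RT112 difference is smaller in the chromosome 19 cluster (-0.44) than in the chromosome 17 cluster (-1.34).

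FBXO5, at chr6:152970535-152983579, encodes EMI1, which blocks the APC/C from the start of DNA replication until mitosis. The J82 controls were at 6.63, 6.57 and 6.66 and the treated arrays at 6.94, 6.75 and 6.79. For RT112 the controls stood at 7.10, 7.18 and 7.11 and the treated arrays at 5.55, 5.47 and 5.45. Treated arrays were all slightly above the controls in J82 and far below them in RT112. The J82 difference of 0.20 ± 0.1 did not pass the test (limma adjusted p = 0.299, 95% interval -0.01 to 0.42). In RT112 FBXO5 fell by 1.64 ± 0.1 (limma adjusted p = 1.4e-07), to a level close to the array medians.

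PTTG1, at chr5:160421855-160428744, encodes securin, an APC/C substrate whose loss frees separase to cut cohesin. Its J82 controls were at 7.39, 7.32 and 6.76 and the treated arrays at 6.46, 5.96 and 6.21. Among RT112 arrays the controls were at 7.19, 7.10 and 6.57 and the treated arrays at 6.07, 5.45 and 5.43. The groups were apart in both lines, and the lowest treated arrays of RT112 were near the array medians. PTTG1 fell by 0.95 ± 0.225 in J82 (limma adjusted p = 0.0178). That call was lost when J82 control replicate 1 (-0.83), control replicate 2 (-0.86), palbociclib replicate 2 (-0.82) or palbociclib replicate 3 (-0.95) was left out. In RT112 it fell by 1.31 ± 0.225 (limma adjusted p = 0.00204). RefSeq also lists the close relative PTTG2 and pseudogenes of several of these genes, and whether the probes tell them apart was not tested.

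The lines differed in how far 3 of the 10 genes moved. CCNA2, CCNF and FBXO5 had a lower response in RT112 than in J82, where 2.74% of all genes did (interaction term in limma, adjusted p under 0.05). The difference of the responses, RT112 minus J82, was -2.81 ± 0.275 for CCNA2 (limma adjusted p = 3.08e-05). It was -1.84 ± 0.142 for FBXO5 (limma adjusted p = 5.13e-06) and its treated arrays lay above the controls in J82 and below them in RT112. For CCNF it was -1.29 ± 0.292 (limma adjusted p = 0.0208). That call was lost without J82 control replicate 2 (-1.19), J82 control replicate 3 (-1.12), J82 palbociclib replicate 3 (-1.16) or RT112 control replicate 1 (-1.26), and when arrays were shifted to one median (-1.27). The median over the 10 genes was -0.76, beside -0.00867 over all genes. Both lines were treated at the IC50, whose concentration is not given for either, so line and dose cannot be told apart in these differences.

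For the other 7 the difference between lines did not pass. UBE2C came nearest, at -1.15 (limma adjusted p = 0.0756, 95% interval -1.87 to -0.43), and it passed without J82 control replicate 1 (-1.38). The interval was -1.52 to -0.16 for CCNB1 and -1.34 to -0.01 for CCNB2, so a deeper response in RT112 lay within both. It was -0.81 to 0.53 for CDC20, -1.04 to 0.32 for PTTG1, -0.23 to 0.42 for FZR1 and -0.97 to 1.08 for UBE2S. For these 4 genes the interval held 0.

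**Figure D4:**
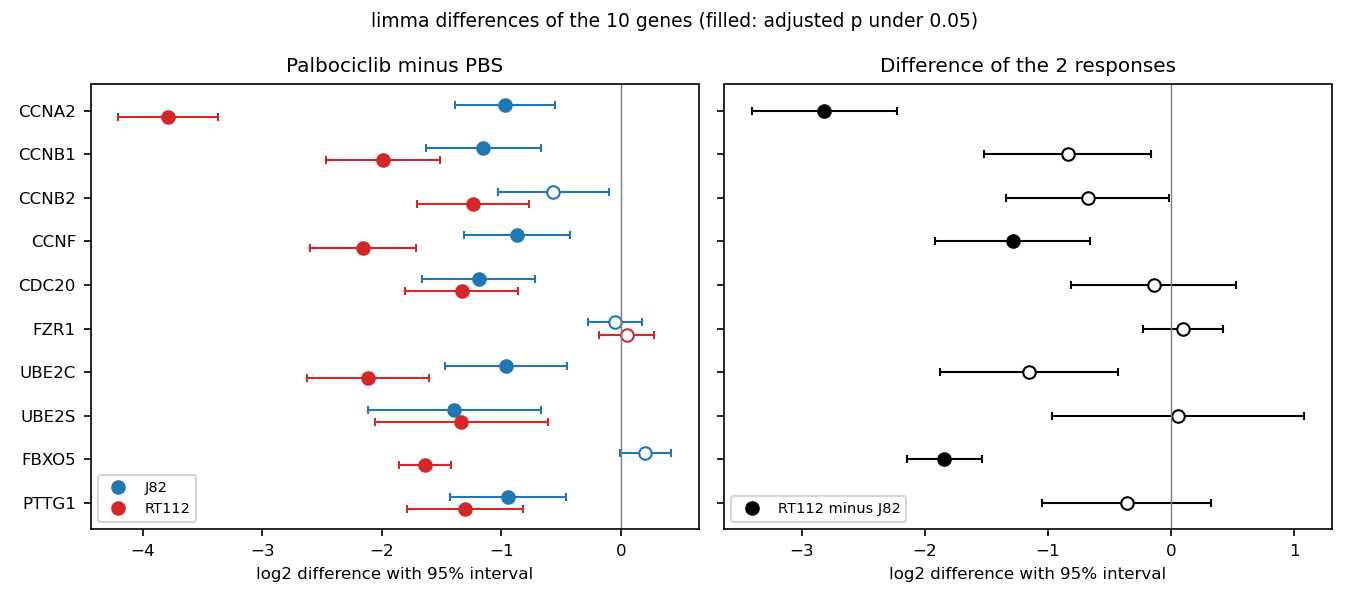
Log2 differences of the 10 genes with 95% intervals from limma, for palbociclib minus PBS in J82 and in RT112 and for the difference of the 2 responses; filled points have an adjusted p under 0.05. Intervals of 7 genes in J82 and 9 in RT112 are filled and lie below 0, and in the difference of responses those of CCNA2, CCNF and FBXO5.

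Between the untreated lines, CCNA2 and FBXO5 passed the test and the other 8 genes did not, though CCNB2 (0.45) passed with quantile normalization (0.64) or array weights (0.49). CCNA2 was higher in RT112 controls than in J82 controls by 1.69 ± 0.194 (limma adjusted p = 1.04e-05) and FBXO5 by 0.51 ± 0.1 (limma adjusted p = 0.00124), 2 of the 10, where 12.8% of all genes were higher. None of the 10 was lower by limma, against 14.7% of all genes, and 2 were at an unadjusted p under 0.05, with no count over all genes at that threshold. UBE2S was nearest, at -0.92 (limma adjusted p = 0.0585). It was -0.44 without J82 control replicate 1 and passed, at -1.23, without J82 control replicate 2, and by its chromosome 19 cluster it was lower by -0.67 ± 0.165 (limma adjusted p = 0.00666). CCNB1 differed by -0.48 (limma adjusted p = 0.141) and passed, at -0.70, when J82 control replicate 3 was left out, while it was -0.25 without J82 control replicate 1. Line and culture cannot be told apart in these differences. Under palbociclib all 3 RT112 arrays were below all 3 J82 arrays for 6 of the 10, namely CCNA2, CCNB1, CCNF, UBE2C, UBE2S and FBXO5, and this was so for 19.5% of all genes. CCNA2 and FBXO5 were thus higher in RT112 before treatment and lower in it after.

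Genes around the APC/C were described in lists drawn up with earlier results of these data known. Of 13 APC/C core subunits measured, none rose or fell in J82 by limma, where 4 were higher and 1 lower at an unadjusted p under 0.05, with no count over all genes at that threshold. The extremes were CDC23, a tetratricopeptide repeat subunit, at 0.57 (limma adjusted p = 0.0818) and its partner CDC27 at -0.48 (limma adjusted p = 0.118). In RT112 1 rose and 1 fell, ANAPC16 at 0.63 (limma adjusted p = 0.0416) and ANAPC7 at -0.60 (limma adjusted p = 0.0466). Over all genes 4.95% rose and 3.53% fell in RT112, and 5.4% rose and 2.78% fell in J82. Counts this small in 13 genes are a description only. The ANAPC7 call was lost when any one RT112 array was left out (-0.69 to -0.43), and the ANAPC16 call in 5 of these 6 fits (0.53 to 0.83). Both were lost without J82 control replicate 2 or J82 palbociclib replicate 2, and when arrays were shifted to one median; ANAPC7 also without J82 control replicate 1 or 3. The list medians were 0.02 in J82 and -0.12 in RT112, beside 0.04 over all genes in each line.

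Of 20 other APC/C substrates, proteins that the ligase marks for destruction at the end of mitosis or in G1, 7 fell in J82 and 20 in RT112, with list medians of -0.54 and -2.004. Of all genes, 2.78% fell in J82 and 3.53% in RT112. In J82 the lowest were ANLN, the cytokinesis scaffold anillin, at -2.01 and PLK1, a mitotic kinase, at -2.001. CDC6, which loads the replicative helicase, was at 0.19 in J82 (limma adjusted p = 0.742) and fell by 4.25 in RT112. BIRC5, the survivin subunit of the chromosomal passenger complex, had the smallest difference in RT112, -0.74, a call lost without RT112 control replicate 1 or 3 or palbociclib replicate 2 or 3. The difference between lines passed for 14 of the 20, all lower in RT112, where 2.74% of all genes were. J82 control replicate 1 was the highest control array for 19 of the 20, and 5 fell when it was left out, while 12 fell after a further quantile normalization.

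Of 7 genes of the spindle checkpoint, which holds CDC20 inactive until chromosomes are attached, 1 fell in J82 and 5 in RT112. The shares of all genes that fell were 2.78% and 3.53%. BUB1, a checkpoint kinase, fell in both lines, with differences of -1.09 in J82 and -2.29 in RT112. MAD2L1, which binds CDC20, was at 0.22 in J82 (limma adjusted p = 0.703) and fell by 2.39 in RT112. BUB3 was at 0.34 in J82 (limma adjusted p = 0.404), and MAD2L1BP had the highest value in RT112, 0.04 (limma adjusted p = 0.975). The list medians were -0.04 and -1.86, and 5 of the 7 had a lower response in RT112, as did 2.74% of all genes.

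Of 12 genes for CDK1 and its activation, 1 fell in J82 and 10 in RT112, with medians of -0.04 and -0.91. Of all genes, 2.78% fell in J82 and 3.53% in RT112, so the J82 count is a description only. Those 10 include WEE1 (-1.82) and PKMYT1 (-0.62), kinases that inhibit CDK1, so the count is not of activators alone. CDK1, the kinase partner of the mitotic cyclins, was at -0.13 in J82 (limma adjusted p = 0.86) and fell by 3.06 in RT112, so cyclin transcripts fell in J82 beside a kinase transcript that did not pass the test. The gene that fell in J82 was CDC25C, a phosphatase that activates CDK1, at -0.48. That call was lost without J82 control replicate 1 (-0.42), control replicate 3 (-0.49) or palbociclib replicate 2 (-0.38). CKS1B, a small CDK-binding protein, was at 0.40 in J82 (limma adjusted p = 0.213), and ENSA, whose phosphorylated form inhibits a mitotic phosphatase, at 0.05 in RT112 (limma adjusted p = 0.969). The response was lower in RT112 for 6 of the 12, as it was for 2.74% of all genes.

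Of 11 genes of separase and cohesin release, 2 fell in J82 and 7 in RT112, with medians of 0.03 and -0.87. The shares of all genes that fell were 2.78% in J82 and 3.53% in RT112. ESPL1, the separase that securin inhibits, fell in both lines (-0.65 in J82 and -1.58 in RT112), in the same direction as PTTG1. SGO1 and SGO2 protect cohesin at centromeres. SGO2 fell in both lines (-0.90 in J82 and -1.21 in RT112), and SGO1 fell in RT112 (-2.30). SMC3, a cohesin ring subunit, was at 0.68 in J82 (limma adjusted p = 0.252), and the cohesin release factor WAPL at 0.09 in RT112 (limma adjusted p = 0.923). The responses differed between lines for 4 of the 11, and for 2 when J82 control replicate 2 was left out. All 4 were lower in RT112, as was the response of 2.74% of all genes.

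Of 18 other cyclins, 1 fell in J82, and in RT112 2 rose and 2 fell, with medians of 0.11 and 0.23. Of all genes, 2.78% fell in J82, and 4.95% rose and 3.53% fell in RT112. Counts this small in 18 genes are a description only. The one that fell in J82 was CCND1, the CDK4 and CDK6 partner cyclin D1, at -1.84, while in RT112 it was at -0.01 (limma adjusted p = 0.999); its response was higher in RT112, as was that of 1.83% of all genes. In RT112 CCNE2, a CDK2 partner of S phase entry, fell (-2.75), as did CCNE1 (-0.67). Treated CCNE2 in RT112 was at 4.80, about the lowest array median, so the size of its difference may be limited by that level. CCNG1 (0.60) and CCNY (0.40) rose there, where CCNY had a limma adjusted p of 0.0451. The CCNG1 call was lost without any one RT112 array but palbociclib replicate 1 (0.55 to 0.65 in those fits). Only 1 of these cyclins fell in RT112 without RT112 control replicate 1 or 2 or palbociclib replicate 2 or 3, and 0 rose without any one of those 4 arrays or control replicate 3. With array weights 7 rose, and after a shift of the arrays to one median 0 did. The highest value in J82 was that of CCNL2, 0.58 (limma adjusted p = 0.236). The cyclin genes that fell in RT112 in this list were CCNE1 and CCNE2, beside CCNA2, CCNB1, CCNB2 and CCNF among the 10. The A-type CCNA1 (0.07, limma adjusted p = 0.898) and the B-type CCNB3 (0.18, limma adjusted p = 0.575) did not pass there. Their RT112 control levels, 4.03 and 4.41, were below the array medians.

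**Figure D5:**
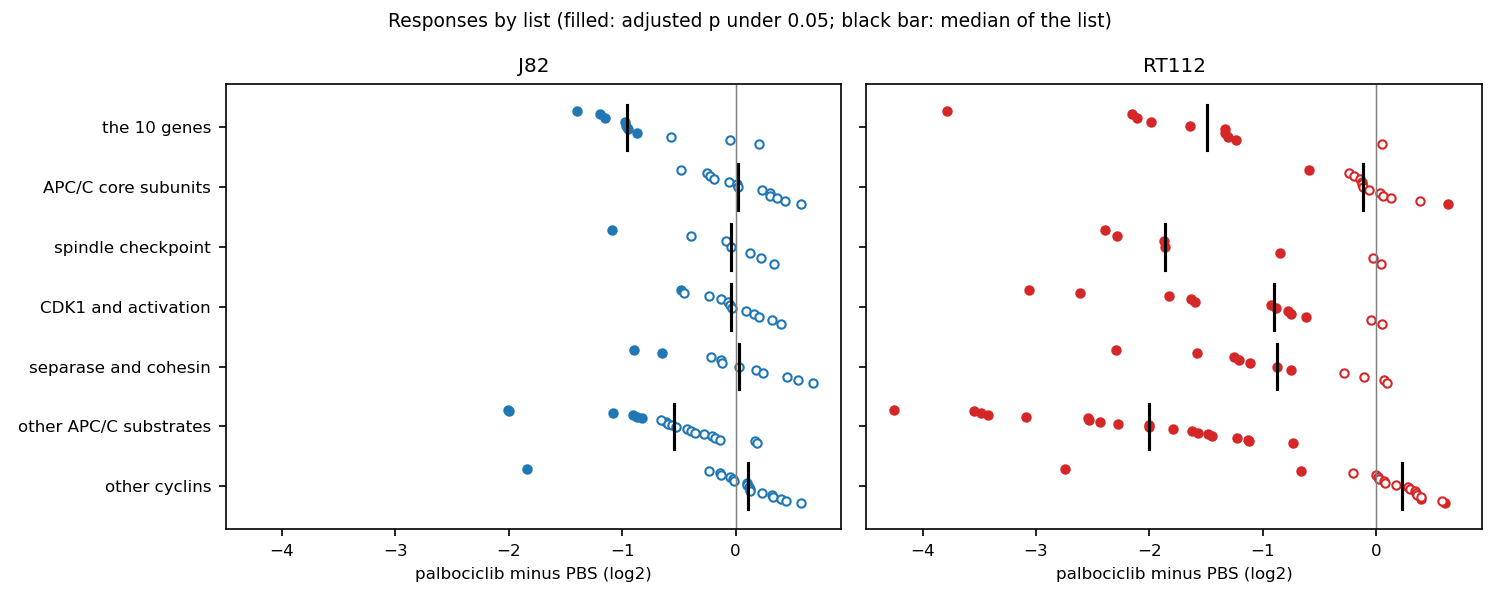
Palbociclib minus PBS (log2) of every measured gene of the 10 and of 6 lists in J82 and RT112; filled points have an adjusted p under 0.05 and black bars are list medians. The medians of the core APC/C subunits (0.02 and -0.12) and of the other cyclins (0.11 and 0.23) lie near 0, though CCND1 in J82 and CCNE2 in RT112 lie far below it, and the other APC/C substrates have a median of -0.54 in J82 and -2.004 in RT112.

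The genes also differed in how alike their deviations from control were, in size as well as in direction. For each gene the log2 values of the 12 arrays were taken as deviations from the control mean of the same line, and likeness was the root mean square difference between 2 genes, or between a gene and the mean of the 10. CCNB1 (0.264), CCNF (0.269), UBE2C (0.275), CDC20 (0.291), PTTG1 (0.295) and CCNB2 (0.313) lay closest to the mean of the 10, which they help to set. UBE2S (0.437) and FBXO5 (0.526) lay farther away, and FZR1 (0.953) and CCNA2 (1.07) farthest. CCNA2 fell in both lines, as most of the 10 did, but had the lowest RT112 difference (-3.79). FZR1 passed the test in neither line. The closest pairs were CDC20 with UBE2S (0.22) and CCNB1 with CCNF (0.223), and the farthest was CCNA2 with FZR1 (1.98). Distances of UBE2S rest on its chromosome 17 cluster. By its chromosome 19 cluster the RT112 difference was -0.44, against -1.33 for CDC20, and distances with that cluster were not computed. Outside the 10, the genes nearest to their mean were MPHOSPH9 (0.121), TROAP (0.129), RAD18 (0.144), ESPL1 (0.163) and CKAP2 (0.166), which were picked as the best of all genes and so lie closer than the members. All distances share the same 12 arrays and their normalization.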

How the data were processed

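The arrays were summarised by the authors to log2 intensities, with RMA and Affymetrix Expression Console named in the submitters' processing notes and no version given. The deposited log2 table had 70523 rows, of which 67528 were transcript clusters; 23781 rows had 1 symbol in the platform annotation. For 479 symbols with several clusters the cluster with the highest mean was kept, leaving 22465 genes. No source used here gives the genome build. The labels gave each array's line and treatment.

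A linear model with 1 mean for each of 4 groups was fitted to the 12 arrays by limma 3.58.1 under R 4.3.3, with eBayes set to follow an intensity trend and 8 residual degrees of freedom. It gave palbociclib minus PBS in each line, the difference of these responses, and the difference of the controls, with Benjamini-Hochberg adjustment over all genes and a threshold of 0.05. No replicate block was used, since same-numbered arrays did not deviate together throughout (correlations 0.0751 to 0.188 in J82 and -0.193 to 0.173 in RT112). The number of arrays limits the precision. The fit was tested on simulated data.

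The members and lists were chosen with earlier results of these data known. All 10 members are named; of each list, the genes with the highest and lowest difference in each line and those a result turns on; and the 5 other genes most like the mean of the members. Motifs were counted on both strands with Python 3.11.15 in RefSeq promoter windows on GRCh38.p14. Alternatives were other normalizations, only genes above the median level, the mean of a symbol's clusters, a replicate block, eBayes without a trend, array weights, each line alone, each array left out, and, added after seeing the data, UBE2S from its chromosome 19 cluster. Background correction and slide or scan batch were not analysed here.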

Additional observations from a re-analysis of the deposited data

Results flagged for a closer look

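The response to palbociclib differed between RT112 and J82 by limma's interaction term for 3 of the 10 genes. The concentration at the IC50 is not given for either line, so line and dose cannot be told apart. RT112 minus J82 was -2.81 for CCNA2, -1.29 for CCNF and -1.84 for FBXO5. Among the list genes named, it was -1.41 for ANLN, -1.19 for BUB1, -1.19 for BUB3, -2.51 for CCNE2, -4.44 for CDC6, -2.93 for CDK1, -1.28 for CKS1B, -2.61 for MAD2L1, -2.08 for SGO1 and -1.80 for SMC3, all lower in RT112. It was 1.83 for CCND1, which fell in J82 (-1.84) and was at -0.01 in RT112. The call of BUB3 was lost when any of 5 arrays was left out and that of SMC3 when any of 7 was, as were both when arrays were shifted to one median.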

How the results depend on the processing

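The number of the 10 genes that fell in J82 was 7 with every other setting except each line alone, where it was 4, and it ranged from 3 to 8 when one array was left out. In RT112 it was 9 with every setting except the chromosome 19 cluster of UBE2S, where it was 8, and 8 to 9 with one array left out. The difference between lines passed for 2 to 4 genes, and levels were higher in RT112 controls for 2 to 3. For lower levels in RT112 controls it was 1 rather than 0 with bright genes only, the mean of clusters, the replicate block and the chromosome 19 cluster, in each case UBE2S, and 0 to 1 with one array left out. Differences near 0 changed sign: FZR1 in RT112 was -0.00535 and MAD2L1BP -0.00706 after quantile normalization, ENSA was -0.0311 with array weights, and the UBE2S difference between lines was -0.164 with array weights. With one array left out, FZR1 ran from -0.12 to 0.0027 in J82 and from -0.027 to 0.0847 in RT112, MAD2L1BP from -0.0455 to 0.0846 and ENSA from -0.0272 to 0.0919. The difference between lines ran from -0.449 to 0.0442 for CDC20 and from -0.426 to 0.366 for UBE2S, and that between controls from -0.358 to 0.0656 for CCNF and from -0.114 to 0.379 for CDC20; the causes were not tested. Over all genes, 624 fell and 1213 rose in J82 (375 and 670 with that line alone), and after a shift to one median 695 fell and 830 rose. Without one array, 400 fell in J82 without palbociclib replicate 2, and 772, 723 and 662 rose there without control replicate 1, control replicate 3 or palbociclib replicate 3. In RT112 793 fell and 1112 rose, 794 and 632 after that shift, and 2544 and 3236 with array weights, which gave RT112 palbociclib replicate 1 a weight of 0.113; 1818 rose there without that array and 544 to 608 without any other one of the RT112 arrays. The difference between lines was lower for 615 genes, 951 after quantile normalization and 1161 with array weights, and higher for 412, or 1223 with array weights, 265 without RT112 control replicate 1 and 720 without RT112 palbociclib replicate 1; controls were higher in RT112 for 2882, or 4635 with array weights. With the replicate block, 7 of the 10 genes fell in J82, 9 in RT112 and 3 differed between lines, as without it, but the calls of ANAPC7 and ANAPC16 in RT112 were lost, 1 other cyclin rather than 2 rose there, and 689 genes fell and 1211 rose in J82. In J82 every array correlated best with its own number, a hint from the data and not the design, and in RT112 not every array did. Levels not far above the array medians limit how small a difference can be seen. Group means of FZR1 were 6.10 to 6.29, and under palbociclib CDC20 was at 6.02 in J82 and 5.95 in RT112. Treated PTTG1 was at 6.21 in J82 and 5.65 in RT112, and treated FBXO5 in RT112 at 5.49. Among the list genes, treated CCNE2 in RT112 was at 4.80.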
